A study of Mus musculus with 46 samples.

Results

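Multipotent germline stem (mGS) cells that arose on their own in cultures of germline stem (GS) cells were set against GS cells, in 10 of the 46 mouse arrays of the study. The mGS samples were 2 lines with 2 cultures each, and the GS samples were 3 lines with 2 cultures each. Members were chosen by sample title alone, and the log2 values of the cultures of a line were averaged before any test, so that the line was the replicate (n = 2 mGS lines and n = 3 GS lines). All 5 lines carried the strain label "DBA/2; GFP Tg", a GFP transgene on the DBA/2 strain, and neither group had received a vector. The promoter of the transgene is not given in the labels. The labels did not say which GS culture an mGS line came from.

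GS cells are cultured spermatogonia that keep the properties of spermatogonial stem cells, and they depend on GDNF, which signals through the receptor Ret and its co-receptor Gfra1. Pluripotent cells such as embryonic stem (ES) cells instead run a network around Pou5f1 (Oct4), Sox2 and Nanog, and they are kept undifferentiated by LIF and serum. mGS cells are ES-like cells that appear in GS cultures, and the question of the comparison was what separates them from the germ cells they arose from.

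The mGS lines grew on mouse embryo fibroblast feeders in DMEM with 15% fetal bovine serum and LIF, and the GS lines grew on mitomycin-treated fibroblast feeders in StemPro-34 with GDNF and basic fibroblast growth factor. Cell type and medium changed together between the groups, and their parts cannot be told apart. Cells were plated on gelatin for 30 min to take off feeders before RNA was extracted. Other lines served as points of comparison. The 12 induced lines were mGS cells made from GS cells of the same strain label with lentiviruses: 3 Dnmt mGS lines with knock-down of p53 and Dnmt1, 3 Dmrt mGS lines with knock-down of p53 and Dmrt1, 3 Sox2 mGS lines with Sox2 and p53 knock-down, and 3 Oct4 mGS lines with Oct4 and p53 knock-down. The 3 iPS lines, of the same strain label, had received retroviral Oct4, Sox2, Klf4 and c-myc, and the 3 ES lines (R1, B6-6 and BRC1) came from other strains.

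Levels below are the deposited intensities on their linear scale, given per line as the mean of its cultures on the log2 scale. Errors on log2 differences are standard errors of a limma fit to all 23 lines, and a gene is called where its Benjamini-Hochberg adjusted p over 19938 genes was under 0.05. A background level of 161 was set at the 95th percentile of the mean levels of 1015 olfactory receptor genes, which neither cell type is known to use. Where every line of the dimmer group lay under that level, a fold is given as a lower bound against it, and the log2 difference beside it is the fitted value, which rests on readings under that level. Array medians ran from 219 to 233 over the 10 arrays. The cultures of a line differed by over 2-fold in 0 to 40 genes, and the mGS lines differed from the GS lines in 2761 to 3432.

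Of 19938 genes, 8592 were called between mGS and GS lines (43.1%). The mGS lines had 3231 genes higher (16.2% of all genes) and 5361 lower (26.9%), and the median log2 difference over all genes was -0.13. The counts of gene lists below are to be read against these shares. Over 2-fold, 1435 genes were called higher and 1422 lower, and over 8-fold, 163 were called higher and 118 lower. The excess of lower calls lay partly among dim genes: where both groups were under the background level, 175 genes were called higher and 1100 lower, and where the brighter group was above it, 3056 were called higher and 4261 lower. Among the olfactory receptor genes themselves 241 of 1015 were called lower, with a median of -0.23; the count was 473 without GS 1 and 23 without mGS 2. Lines of the groups did not overlap in 12909 genes (64.7%), and 7247 genes were called, did not overlap and were above background.

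Marker genes went with the labels. Nanog, a core factor of pluripotent cells, had 5337 and 3959.7 in the mGS lines, against 56.5, 44.9 and 41.8 in the GS lines. Single cultures ranged from 3863 to 5386 in mGS and from 35.1 to 58.1 in GS, so the GS cultures were all under background and the mGS lines were at least 28.6-fold higher (log2 difference 6.60 ± 0.25, adjusted p = 8.01e-13). Zbtb16, the zinc finger protein PLZF that spermatogonial stem cells need for self-renewal, showed the opposite pattern, with 129.9 and 124 in the mGS lines, against 8987, 14611 and 12036 in the GS lines. Its log2 difference was -6.52 ± 0.15 (adjusted p = 9.12e-16), at least 72.4-fold lower in mGS. Summed over 8 pluripotent markers, the lines had 29937 to 35590 in mGS, against 1596 to 3804 in GS, and the iPS and ES lines had 31504 to 38185. Summed over 8 spermatogonial markers, the lines had 1875 to 2089 in mGS, against 42755 to 48324 in GS. In such bulk samples fewer cells of a type and less RNA per cell cannot be told apart.

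**Figure D1:**
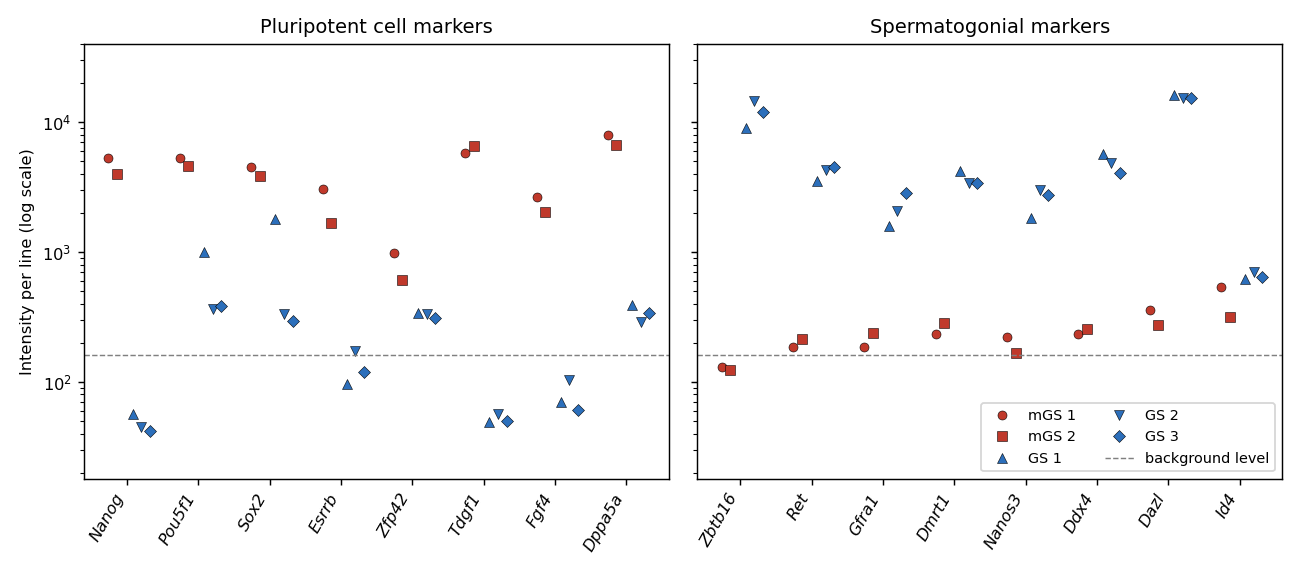
Intensity per line (log scale) of 8 pluripotent cell markers (left) and 8 spermatogonial markers (right) in the 2 mGS lines (red) and the 3 GS lines (blue), each point the mean of 2 cultures on the log2 scale, with the background level of 161 dashed. Nanog lies at 5337 and 3959.7 in mGS and at 56.5, 44.9 and 41.8 in GS, Zbtb16 lies at 129.9 and 124 in mGS and at 8987, 14611 and 12036 in GS, and GS 1 stands above the other GS lines for Sox2 and Pou5f1.

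The 15 largest called increases by fitted log2 difference included many genes of the ES cell state. Tdgf1 (Cripto), the co-receptor of Nodal, had 5799 and 6538 in the mGS lines, against 48.9, 56.2 and 50.4 in the GS lines, at least 38.3-fold higher (log2 difference 6.90 ± 0.30, adjusted p = 4.93e-12). Nr0b1 (Dax1), an orphan nuclear receptor of the ES cell network, had 5713 and 3236 in mGS, against 43.5, 36.1 and 36.8 in GS, at least 26.7-fold higher. Both genes were under background in every GS line. Apela, which encodes a peptide ligand of the apelin receptor, had 3434 and 3790.4 in mGS, against 103, 60.8 and 70.2 in GS. L1td1, an RNA-binding protein of ES cells, had 1512 and 1352 in mGS, against 37.3, 39.2 and 36.4 in GS. Etl4, a gene also known as Skt, had 1633 and 1507 in mGS, against 46.3, 46.8 and 43.2 in GS (log2 difference 5.11 ± 0.13, at least 9.75-fold higher). Trh, the precursor of thyrotropin-releasing hormone, had 3902 and 5980.4 in mGS, against 176, 112 and 99.5 in GS. Stmn2, a regulator of microtubules, had 3968 and 3384 in mGS, against 252, 60.3 and 68.9 in GS. The remaining genes of the 15 called increases with the highest log2 differences were Nanog, Gm6083, Tet1, Lefty1, Otx2, Dnmt3l, Jam2 and Lefty2, with log2 differences of 5.04 to 6.60.

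The 15 largest called decreases by fitted log2 difference included many germ cell genes, and 6 of them lie on chromosome X and 1 on chromosome Y. Mageb4, of the MAGE family, had 77.4 and 70.8 in the mGS lines, against 7527, 10899 and 9403 in the GS lines, at least 57-fold lower (log2 difference -6.95 ± 0.18, adjusted p = 3.69e-15). Nxf2, an mRNA export factor of germ cells, had 128 and 121 in mGS, against 16580.1, 15669 and 12653 in GS, at least 92.4-fold lower. Foxf1, a forkhead transcription factor best known from mesoderm, had 224 and 207 in mGS, against 13029, 12909.5 and 10975 in GS, 56.9-fold lower (log2 difference -5.83 ± 0.11). Zic1, a zinc finger transcription factor best known from neural tissue, had 153 and 152 in mGS, against 8382, 7964 and 11669 in GS, at least 57.2-fold lower. Dazl, an RNA-binding protein of germ cells, stayed above background in mGS, at 361 and 273, against 16328, 15438 and 15426 in GS. Tuba3b, a testis alpha-tubulin, had 94.8 and 99.4 in mGS, against 9023, 8751 and 8874 in GS. Tktl1, a transketolase-like gene, had 175 and 179.8 in mGS, against 7622, 8066 and 7967 in GS. Gm773, Asz1, Usp9y, Slc25a31, Taf7l, Tex13b, Ccdc172 and Zbtb16 complete these 15, whose log2 differences ran from -6.95 to -5.48. Mageb4, Nxf2 and Tuba3b belong to families of similar genes, and how far their probes read related copies was not tested.

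The start regions of the 2 genes at either end are shown because these genes had the largest fitted log2 differences; by the lower bounds above, Nanog and Zbtb16 exceed Nr0b1 and Mageb4. Each sequence runs 5′ to 3′ on the strand of the gene, from 250 bases before the start to 50 bases after it, as RefSeq gives it for GRCm38.p6, and capitals mark the E-box CACGTG, the hexamer read by MAX-containing dimers. Tdgf1 lies at chr9:110946109-110946408 on the minus strand and Nr0b1 at chrX:86191525-86191824 on the plus strand.
Tdgf1: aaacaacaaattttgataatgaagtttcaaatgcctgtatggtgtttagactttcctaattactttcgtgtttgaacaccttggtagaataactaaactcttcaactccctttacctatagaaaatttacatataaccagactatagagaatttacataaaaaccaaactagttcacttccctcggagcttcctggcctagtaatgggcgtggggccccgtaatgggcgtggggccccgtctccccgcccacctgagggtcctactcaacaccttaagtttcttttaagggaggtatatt
Nr0b1: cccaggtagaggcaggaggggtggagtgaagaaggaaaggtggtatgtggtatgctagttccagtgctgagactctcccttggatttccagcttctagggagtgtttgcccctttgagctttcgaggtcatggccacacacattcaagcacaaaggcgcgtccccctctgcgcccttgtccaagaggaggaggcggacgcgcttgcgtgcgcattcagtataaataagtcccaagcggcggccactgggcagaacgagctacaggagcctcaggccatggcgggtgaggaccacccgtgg
Mageb4 lies at chrX:86256170-86256469 on the minus strand, close to Nr0b1 on the same chromosome, and Nxf2 lies at chrX:134964705-134965004 on the minus strand.
Mageb4: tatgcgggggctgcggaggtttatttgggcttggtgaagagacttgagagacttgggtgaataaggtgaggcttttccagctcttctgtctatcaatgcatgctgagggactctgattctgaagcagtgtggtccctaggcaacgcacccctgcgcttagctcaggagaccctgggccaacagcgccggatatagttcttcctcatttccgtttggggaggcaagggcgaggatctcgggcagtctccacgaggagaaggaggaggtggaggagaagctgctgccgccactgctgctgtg
Nxf2: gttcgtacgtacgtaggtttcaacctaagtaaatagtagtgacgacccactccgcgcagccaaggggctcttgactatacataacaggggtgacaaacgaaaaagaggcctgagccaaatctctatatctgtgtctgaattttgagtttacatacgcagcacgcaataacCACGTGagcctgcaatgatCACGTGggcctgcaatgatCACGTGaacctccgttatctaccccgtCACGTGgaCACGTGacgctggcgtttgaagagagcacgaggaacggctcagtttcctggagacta
The Nxf2 window held 5 matches to CACGTG and 20 CG dinucleotides, and the other windows held no match and 7 CG dinucleotides in Tdgf1, 14 in Nr0b1 and 11 in Mageb4. Nr0b1 and Mageb4, neighbours on the X, had opposite differences between the groups.

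Core and naive pluripotency factors were higher as a group: 17 of the 23 measured genes were called higher, 1 lower and 5 were not called, with a median log2 difference of 2.27 against -0.13 over all genes. Zscan10, a zinc finger factor of ES cells, had 1645 and 1413 in the mGS lines, against 72, 70.4 and 56 in the GS lines (log2 difference 4.54 ± 0.24, at least 9.47-fold higher). Utf1, a chromatin protein of pluripotent cells, had 5219.9 and 5351 in mGS, against 343, 361 and 160.2 in GS (log2 difference 4.29 ± 0.29). Esrrb, an orphan nuclear receptor of naive cells, had 3043 and 1676 in mGS, against 96.8, 172 and 119 in GS (log2 difference 4.17 ± 0.81). Klf2, Klf4 and Klf5 are Kruppel-like factors with overlapping roles in ES cells. Klf5 had 4634 and 3087 in mGS, against 407, 353 and 299 in GS (log2 difference 3.43 ± 0.20), and Klf2 had 1656 and 1371 in mGS, against 120.2, 104 and 104 in GS (log2 difference 3.79 ± 0.43, at least 9.36-fold higher). Klf4 had 1828 and 1376 in mGS, against 774, 432 and 399.7 in GS, a smaller difference (1.63 ± 0.50, adjusted p = 0.0133) that was not called without mGS 1 (1.43) or without GS 3 (1.46).

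Some factors of the network were well above background in GS lines too. Pou5f1 had 5258 and 4618 in mGS, against 1000.1, 365 and 381 in GS (log2 difference 3.25 ± 0.27, adjusted p = 2.59e-08). Sox2 had 4555 and 3837 in mGS, against 1807, 331 and 293 in GS (log2 difference 2.90 ± 0.51, adjusted p = 0.000159). The GS 1 line held the highest GS level of both, in each of its cultures (Sox2 1956 and 1670, Pou5f1 1021 and 979.6), and its Nanog cultures were at 58.1 and 54.9. Sall4, a zinc finger factor used by ES cells and spermatogonia alike, had 3857 and 3099 in mGS, against 2035, 2038 and 2222 in GS (log2 difference 0.72 ± 0.13). Nr5a2, an orphan nuclear receptor of naive cells, had 2250.4 and 743 in mGS, against 846, 1794 and 1451 in GS, and Tcl1, a co-activator of Akt, had 1398 and 507 in mGS, against 689, 778 and 1073 in GS. The lines of the groups overlapped for both genes, and neither was called (log2 differences -0.01 ± 0.74 and 0.02 ± 1.02). Zfp42 (Rex1), a classic ES cell marker, had 976 and 614 in mGS, against 337, 336 and 308 in GS, groups that did not overlap, and it was not called (1.24 ± 0.57, adjusted p = 0.0892). The gene called lower was Tcf3, at 1235 and 1453 in mGS, against 2349, 2422 and 2338 in GS (log2 difference -0.82 ± 0.13). Tcf3, on chromosome 10, is the helix-loop-helix factor E2A and not the Wnt effector Tcf7l1, which was once known by the same name.

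Of 24 further ES cell marker genes 18 were called higher and 1 lower, with a median of 1.97. Dppa5a, a small RNA-binding protein, had 7983 and 6662 in mGS, against 388, 291 and 341 in GS (log2 difference 4.43 ± 0.43). Fgf4, the growth factor that ES cells make themselves, had 2638 and 2032 in mGS, against 70.1, 103 and 60.7 in GS, at least 14.4-fold higher (log2 difference 4.93 ± 0.40). Eras, an X-linked Ras of ES cells, had 376 and 485 in mGS, against 43.1, 34.2 and 34.2 in GS, at least 2.65-fold higher. Dppa2 and Dppa4 encode partner proteins that act on chromatin. Dppa2 had 3569.6 and 3322 in mGS, against 726, 436 and 419.7 in GS (log2 difference 2.75 ± 0.20), and Dppa4 had 1329.8 and 1103 in mGS, against 313, 760.3 and 599 in GS (log2 difference 1.21 ± 0.24). Epcam and Lin28a are markers that spermatogonia also use. Epcam overlapped between the groups, at 1295 and 2093 in mGS, against 1404, 1519 and 1492 in GS, and Lin28a did not, at 1499 and 1712 in mGS, against 1187, 1301 and 919 in GS. Neither was called (log2 differences 0.16 ± 0.53 and 0.51 ± 0.41). The gene called lower was Fut4, a fucosyltransferase, at 131 and 138 in mGS, against 221, 225 and 188 in GS (log2 difference -0.64 ± 0.12, at least 1.31-fold lower).

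**Figure D2:**
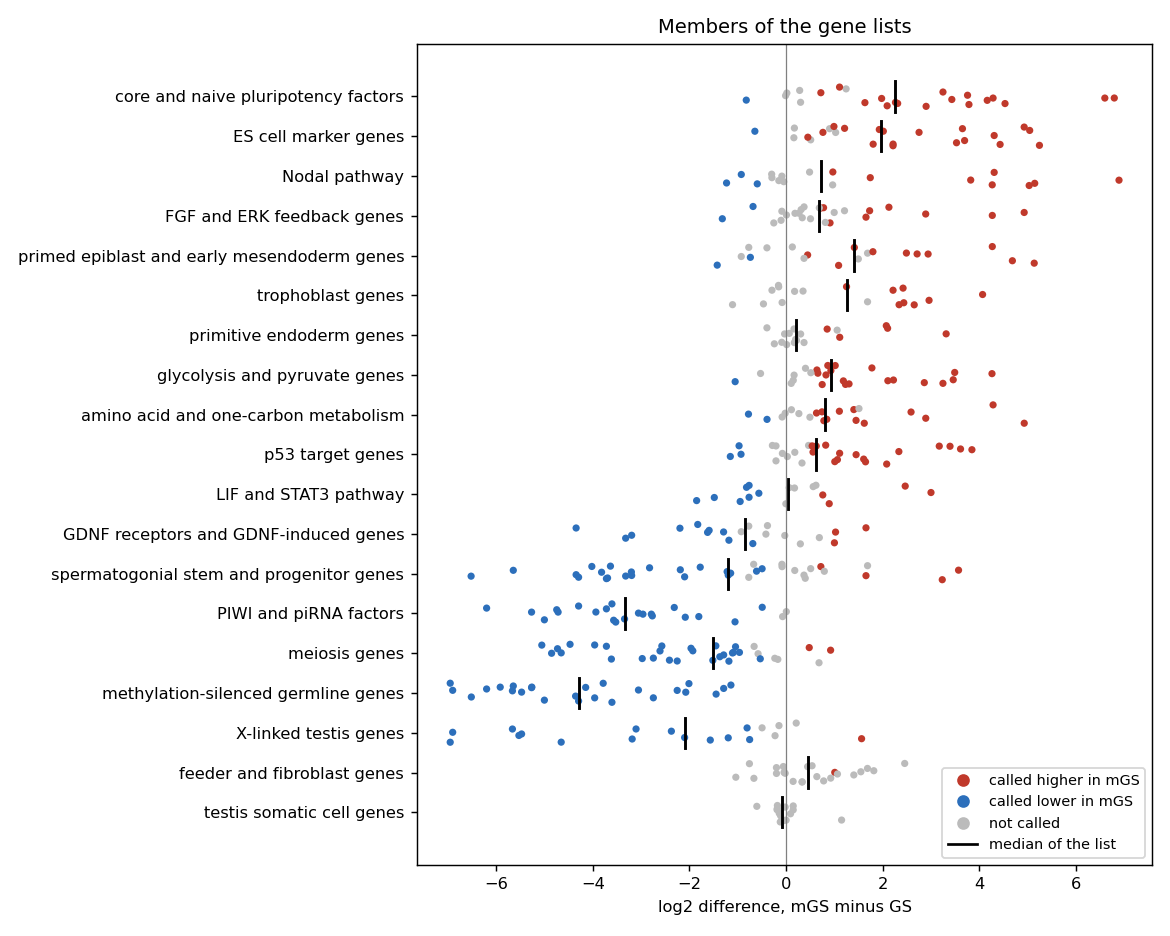
Log2 difference, mGS minus GS, of every measured member of 19 gene lists, coloured by call, with the median of each list as a bar. Pluripotency and ES cell lists have medians of 2.27 and 1.97, methylation-silenced germline and piRNA lists have medians of -4.29 and -3.34, and the LIF, testis somatic and feeder lists have medians of 0.03, -0.08 and 0.45.

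The ligands Nodal, Bmp4 and Fgf4 were all higher in mGS lines. The Nodal pathway signals through activin receptors and Smad2 or Smad3. Of its 18 measured genes 8 were called higher and 3 lower (median 0.73), against 16.2% and 26.9% of all genes. Nodal itself had 1449 and 1075 in mGS, against 71.1, 62.4 and 154 in GS, at least 7.76-fold higher (log2 difference 3.82 ± 0.35). Lefty2, a feedback inhibitor of Nodal, had 1085 and 878 in mGS, against 28.9, 29.6 and 30.9 in GS. Foxh1, the partner factor of Smad2, had 739 and 1018 in mGS, against 49, 50.2 and 36.9 in GS, at least 5.39-fold higher. The receptors Acvr1b, Acvr2a and Acvr2b were not called, with log2 differences of -0.15 to -0.05. Smad2 had 1127 and 930.2 in mGS, against 2085, 1839 and 1919.8 in GS (log2 difference -0.93 ± 0.10), and Smad3 had 443 and 699.8 in mGS, against 1142, 1477 and 1323 in GS (log2 difference -1.23 ± 0.22), so both signal carriers were lower.

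In the BMP list 3 of 19 genes were called higher and 5 lower (median -0.23), shares close to the 16.2% and 26.9% of all genes, with 2 lower without mGS 1 and 2 without mGS 2. Bmp4, the ligand that works with LIF in ES cell culture, had 3634 and 2170.1 in mGS, against 250.3, 123 and 94.2 in GS (log2 difference 4.30 ± 0.55). Id2, an inhibitor of helix-loop-helix factors, had 2563 and 1483 in mGS, against 357, 67.5 and 64.8 in GS (log2 difference 4.07 ± 0.61). Id1 and Id3, targets of BMP signalling in ES cells, were not called (log2 differences 1.13 ± 0.71 and 0.68 ± 0.83), and neither was Id4, a marker of spermatogonial stem cells, at 536 and 315 in mGS, against 619, 704 and 643 in GS.

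The LIF and STAT3 list had no common direction: 4 of 16 genes were called higher and 7 lower (median 0.03), with 2 higher without mGS 1 and 2 without mGS 2. The shares over all genes were 16.2% called higher and 26.9% called lower. Socs2, a feedback inhibitor of cytokine receptors, had 4097 and 2645 in mGS, against 597, 349.8 and 332 in GS (log2 difference 3.00 ± 0.26). Jak1 and Tyk2, kinases that carry LIF signals, were lower, and the level of Jak2, also in the list, is not given here. Jak1 had 1120.0 and 1187 in mGS, against 4074, 3917 and 4503 in GS (log2 difference -1.85 ± 0.16). Tyk2 had 333 and 327 in mGS, against 641, 669 and 604 in GS (log2 difference -0.95 ± 0.22). Stat3 had 2126 and 1452 in mGS, against 3031, 3013 and 2913 in GS (log2 difference -0.77 ± 0.18), a call lost without mGS 2 (-0.49). The receptors Lifr and Il6st were not called, at 1399 and 850.2 in mGS, against 756, 702 and 674 in GS, for Lifr (log2 differences 0.62 ± 0.32 and 0.07 ± 0.16).

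Of 25 genes of FGF signalling and ERK feedback, 9 were called higher and 2 lower (median 0.69), against 16.2% and 26.9% of all genes. Besides Fgf4, Spred2, an inhibitor of Ras signalling, was higher, at 1841 and 1885 in mGS, against 819.6, 1285 and 1374 in GS (log2 difference 0.72 ± 0.17, 0.49 without GS 1). The immediate early gene Egr1 and the ERK phosphatase Dusp5 were lower. Egr1 had 2340.3 and 2609.7 in mGS, against 4139, 4076 and 3700.2 in GS (log2 difference -0.68 ± 0.14), and Dusp5 had 662 and 408 in mGS, against 1056, 1206 and 1708 in GS (log2 difference -1.32 ± 0.28). Dusp6, which ERK also induces, overlapped between the groups, with 2388 and 1749 in mGS, against 1138, 3169.8 and 2925 in GS.

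Several genes of later embryonic states were called higher in mGS lines as well, and the counts depended on mGS 2. The summed level of 23 feeder and fibroblast genes also differed between the lines, at 12729 in mGS 1 and 33021 in mGS 2, against 27875 in GS 1, 10646 in GS 2 and 9177 in GS 3, and its part in these counts was not tested. Of 19 genes of primed epiblast and early mesendoderm, 10 were called higher and 2 lower (median 1.41), and without mGS 2 the counts were 5 higher and 4 lower. Otx2, a factor of the primed epiblast, had 795 and 1921 in mGS, against 42, 32 and 32 in GS, at least 7.68-fold higher (log2 difference 5.14 ± 0.43). Foxd3, a forkhead factor of the epiblast, had 407 and 403 in mGS, against 80.6, 52.5 and 34.6 in GS, at least 2.52-fold higher, with the mGS lines alike. Fgf5, the standard marker of the primed state, had 413 and 1234 in mGS, against 39.7, 37 and 34.3 in GS (log2 difference 4.27 ± 1.25, at least 4.43-fold higher, adjusted p = 0.0102), a call lost without mGS 2 (3.48). Cer1, a secreted inhibitor of Nodal and BMP, had 239.8 and 1299 in mGS, against 96.1, 101 and 100.5 in GS (log2 difference 2.49 ± 0.50, at least 3.47-fold higher), and the difference was 1.27 without mGS 2. Mixl1 and Eomes, of mesendoderm, were not called over both lines. Eomes had a log2 difference of 1.69 ± 0.74, and Mixl1 had 363 and 1141 in mGS, against 242, 225 and 218 in GS, and was called without mGS 1 (log2 difference 2.32).

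Of 17 trophoblast genes 8 were called higher and none lower (median 1.25), and 5 were called higher without mGS 2. Plet1 had 1292 and 689 in mGS, against 98.1, 145 and 125 in GS, at least 5.86-fold higher. Krt8 and Krt18 form the keratin pair of simple epithelia. Krt18 had 565 and 2082 in mGS, against 124, 134 and 309 in GS (log2 difference 2.65 ± 0.57), and Krt8 had 911 and 2813 in mGS, against 276, 294 and 317 in GS (log2 difference 2.44 ± 0.65); both calls were lost without mGS 2 (1.71 and 1.63). Cdx2 and Elf5, which define trophoblast stem cells, were under background in all 5 lines. Of 18 primitive endoderm genes 5 were called higher and none lower (median 0.21), with 3 higher without mGS 2, 3 without GS 2 and 3 without GS 3. Over all genes 16.2% were called higher. Gata6, the defining factor, had 380.4 and 1035 in mGS, against 182, 102 and 166 in GS (log2 difference 2.10 ± 0.38, 1.38 without mGS 2), and Lama1, a laminin chain of basement membrane, had 1125 and 1256 in mGS, against 143, 115 and 103 in GS, at least 7.39-fold higher. Sox17, Gata4 and Hnf4a were not called. All 6 measured genes of the 2-cell-like list were under background in both groups, and limma called 0, with 0 at an unadjusted p under 0.05. Another 6 genes of that list, Zscan4c, Zscan4d, Zscan4f, Tcstv1, Dux and Tdpoz4, were not measured, so the list says little about that state.

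The spermatogonial programme was lower in mGS lines. Of 35 genes of spermatogonial stem and progenitor cells, 21 were called lower and 4 higher (median -1.20). Ddx4 (the mouse vasa homologue), an RNA helicase of germ cells, had 235 and 256 in mGS, against 5648, 4841 and 4092 in GS (log2 difference -4.29 ± 0.30). Sohlh2, a helix-loop-helix factor of spermatogonia, had 163 and 123 in mGS, against 1763, 2538 and 2724 in GS (log2 difference -4.02 ± 0.56). Dmrt1, a DM-domain factor of spermatogonia, had 233 and 286 in mGS, against 4219.5, 3400.2 and 3379 in GS (log2 difference -3.82 ± 0.47). Foxc2 and Nanos3 mark undifferentiated spermatogonia. Nanos3 had 220.1 and 166 in mGS, against 1841, 2981 and 2772 in GS (log2 difference -3.70 ± 0.19), and Foxc2 had 185 and 204 in mGS, against 2056, 2673 and 2556 in GS (log2 difference -3.64 ± 0.25). Foxo1, a factor of stem cell maintenance, was lower and still far above background, at 1026 and 999 in mGS, against 3356, 3754 and 3313 in GS (log2 difference -1.78 ± 0.35). The 4 members called higher were Cdh1, Upp1, Etv5 and Sall4, of which Cdh1 (E-cadherin), an adhesion molecule shared by both cell types, had 2669 and 3598 in mGS, against 337, 249 and 210.0 in GS (log2 difference 3.57 ± 0.23).

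For GDNF signalling, 10 of 20 genes were called lower and 3 higher (median -0.85), against 26.9% and 16.2% of all genes. Ret had 187 and 216 in the mGS lines, against 3519, 4280.3 and 4530.5 in the GS lines, 20.3-fold lower (log2 difference -4.35 ± 0.20, adjusted p = 1.33e-11). Gfra1 had 186 and 239 in mGS, against 1593, 2069.6 and 2835 in GS, 9.99-fold lower (log2 difference -3.32 ± 0.28). Both receptor genes were above background in mGS lines and did not overlap with GS. Among the genes that GDNF induces in spermatogonia, Bcl6b, a transcriptional repressor, had 167 and 272 in mGS, against 863, 3131 and 2757 in GS (log2 difference -3.20 ± 0.59), and Egr4, a zinc finger factor, had 182 and 169 in mGS, against 924, 851 and 657 in GS (log2 difference -2.20 ± 0.13). Etv5, an ETS factor that GDNF induces in spermatogonia and that ES cells also use, ran the other way, at 3738 and 3623 in mGS, against 484, 1864 and 1765 in GS (log2 difference 1.66 ± 0.36, 1.02 without GS 1). Lhx1 and Pou3f1, which GDNF also induces, were not called (log2 differences -0.77 ± 0.57 and -0.93 ± 0.82). Lhx1 overlapped between the groups, at 210.1 and 1031 in mGS, against 395, 817 and 1554 in GS, and was called lower without mGS 2 (-1.92).

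Of 25 genes of retinoic acid handling and spermatogonial differentiation 9 were called lower and 3 higher (median -0.23), against 26.9% and 16.2% of all genes, and the median equalled that of the olfactory receptor genes. The count was 1 higher without mGS 2. Rxra, a retinoid receptor, had 348 and 344 in mGS, against 1034, 1139 and 1177 in GS (log2 difference -1.69 ± 0.21), and Aldh1a2, which makes retinoic acid, had 120.5 and 105 in mGS, against 491, 504 and 348 in GS (log2 difference -1.97 ± 0.22, at least 2.74-fold lower). Kit, the receptor of differentiating spermatogonia, was higher, at 689 and 563 in mGS, against 301, 225 and 194 in GS (log2 difference 1.40 ± 0.52, adjusted p = 0.0366). That call was lost without mGS 1, mGS 2, GS 2 or GS 3, at 1.25, 1.54, 1.36 and 1.26. Stra8, the gatekeeper of meiosis, was low in all lines and called lower, at 104 and 99.1 in mGS, against 251, 200.5 and 183 in GS (log2 difference -1.05 ± 0.19, at least 1.3-fold lower).

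The piRNA pathway, in which PIWI proteins and Tudor-domain proteins silence transposons in germ cells, had 21 of 23 genes called lower and none higher (median -3.34). The share called lower over all genes was 26.9%. Among the PIWI proteins, Piwil2 had 281 and 227 in mGS, against 3941, 4338 and 3374 in GS (log2 difference -3.94 ± 0.26), and Piwil4 had 132 and 92.4 in mGS, against 1541, 1669.8 and 1192 in GS, at least 9.03-fold lower. Tdrd1, a Tudor-domain scaffold, had 94.4 and 104 in mGS, against 4744, 4245 and 2773 in GS, at least 23.8-fold lower. Asz1, a mitochondrial scaffold of the pathway, had 54.1 and 57.2 in mGS, against 3996, 4321 and 3957 in GS, at least 25.4-fold lower. Mov10l1, the helicase that feeds precursors into the pathway, had 140.3 and 147 in mGS, against 4165, 5297 and 4429 in GS, at least 28.6-fold lower. Henmt1, which methylates piRNA ends, had 112 and 108 in mGS, against 3276, 3229 and 2415 in GS, at least 18.3-fold lower. Mael, a piRNA factor of spermatogonia, kept a level of 930.1 and 890.2 in mGS, against 7115, 8153 and 7455 in GS (log2 difference -3.06 ± 0.39). Morc1, which silences transposons in male germ cells, was not called, with 2352 and 1556 in mGS, against 1098, 2763 and 2277 in GS.

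Of 33 meiosis genes 26 were called lower and 2 higher (median -1.51), with 1 higher without mGS 1. Over all genes 26.9% were called lower and 16.2% higher. GS lines held sizeable levels of several axis and cohesin genes. Stag3, a meiotic cohesin subunit, had 406 and 368 in mGS, against 4730.5, 4948 and 4547 in GS (log2 difference -3.62 ± 0.56). Sycp1, of the synaptonemal complex, had 166 and 177 in mGS, against 2784, 2882 and 2389 in GS (log2 difference -3.96 ± 0.27), and Sycp2, of the chromosome axis, had 70.9 and 78.4 in mGS, against 2577, 2719.8 and 2179.9 in GS, at least 15.4-fold lower. Smc1b, a cohesin subunit, had 53.2 and 62.9 in mGS, against 1931, 1347 and 1392 in GS, at least 9.54-fold lower. Mlh3, a mismatch repair protein that also acts in crossing over, was higher, at 701 and 589 in mGS, against 329.8, 322 and 365 in GS (log2 difference 0.92 ± 0.22).

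All 25 measured genes of a list of germline genes that are known in mouse to be silenced by promoter methylation outside germ cells were called lower, with a median of -4.29. The background share of lower calls was 26.9%. The list was chosen with earlier results of these data known, so the count describes its members and is not a test. Their levels summed to 6705 in mGS 1 and 7010 in mGS 2, against 126430 in GS 1, 126799 in GS 2 and 115033 in GS 3. Tex101, a germ cell surface protein, had 113 and 110.2 in mGS, against 4118, 4720.2 and 4027 in GS, at least 26.6-fold lower. Taf7l, a TFIID subunit of germ cells, had 84.6 and 89.5 in mGS, against 4335, 4820.4 and 4121 in GS, at least 27.4-fold lower. Brdt, a testis bromodomain protein, had 153 and 149 in mGS, against 4084, 2256 and 2090.4 in GS, at least 16.7-fold lower. The smallest difference was that of Rpl10l, an autosomal copy of an X-linked ribosomal protein gene, at 1345 and 1821 in mGS, against 3584, 3773 and 3036 in GS (log2 difference -1.14 ± 0.45, adjusted p = 0.0494). Leaving out 1 line left 22 or 23 of the 25 calls, and the calls lost were those of Rpl10l and Hormad1 without any 1 of the 5 lines and of Tex19.1 without mGS 2. For Rpl10l these fits gave log2 differences of -0.92 without mGS 1, -1.36 without mGS 2, -1.11 without GS 1, -1.08 without GS 2 and -1.23 without GS 3. Of 19 X-linked testis genes and their relatives 14 were called lower and 1 higher (median -2.10). Usp26, a deubiquitinase, had 409 and 541 in mGS, against 4584, 3985 and 4288 in GS (log2 difference -3.19 ± 0.46), and Rhox9, a homeobox gene, was the member called higher, at 654 and 349 in mGS, against 252, 139 and 119.7 in GS (log2 difference 1.57 ± 0.41), a call lost without mGS 1 (1.11).

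Of 18 genes of DNA methylation and demethylation 6 were called higher and 4 lower (median -0.04), against 16.2% and 26.9% of all genes. Tet1, which oxidises 5-methylcytosine, had 5816 and 5456 in mGS, against 147, 175 and 102 in GS, and Tet2 of the same family had 1984 and 1195 in mGS, against 149, 93.1 and 74.6 in GS, at least 9.56-fold higher. Tet3 went the other way, at 230.0 and 239.6 in mGS, against 557, 689 and 572 in GS (log2 difference -1.36 ± 0.13). Dnmt3l, the cofactor of de novo methylation, had 3971 and 3555 in mGS, against 134, 140.2 and 77.9 in GS, at least 23.3-fold higher. Dnmt3b, a de novo methyltransferase, had 1097 and 2241 in mGS, against 526, 474 and 366 in GS (log2 difference 1.80 ± 0.59), a call lost without mGS 2 (1.28) or GS 3 (1.65). Dnmt1, the maintenance methyltransferase, and its partner Uhrf1 were not called: Dnmt1 had 2100.2 and 2045 in mGS, against 3132, 2904 and 3062 in GS (-0.55 ± 0.39), and Uhrf1 had 1804 and 1721 in mGS, against 1577, 2067 and 2243 in GS (-0.14 ± 0.24). Zfp57, which protects imprints, had 5528 and 3895 in mGS, against 718, 1158 and 1083 in GS (log2 difference 2.26 ± 0.26).

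Repressor complexes had no common direction, with 12 of 33 genes called higher and 13 lower (median -0.06). The shares of all genes were 16.2% higher and 26.9% lower. Within Polycomb complex PRC2, the catalytic subunit Ezh2 was higher, at 3819 and 4085 in mGS, against 2097, 1938 and 2295 in GS (log2 difference 0.91 ± 0.09), and its alternative Ezh1 was lower, at 824 and 860.3 in mGS, against 1669.9, 1869 and 1781 in GS (log2 difference -1.07 ± 0.30). Within PRC1, the chromobox gene Cbx7 was higher, at 1567 and 1425 in mGS, against 494, 569.7 and 555 in GS (log2 difference 1.47 ± 0.13), and Cbx2 was lower, at 822 and 796 in mGS, against 2005, 2419 and 1962 in GS (log2 difference -1.39 ± 0.14). Among the ring-finger partners of PRC1, Bmi1 was lower, at 274 and 295 in mGS, against 1681, 1586 and 1160.1 in GS (log2 difference -2.36 ± 0.26), and Pcgf2 was higher, at 1088 and 959.7 in mGS, against 555, 596 and 541 in GS (log2 difference 0.86 ± 0.13). These pairs of related subunits had opposite differences, and they were picked from the called genes of the list. Scml2, a germline Polycomb protein on the X, had 116 and 108 in mGS, against 3690.4, 3683 and 3609 in GS, at least 22.7-fold lower. E2f6, a repressor of germline genes in other cells, was lower as well, at 483 and 626 in mGS, against 1906, 2024 and 1752 in GS (log2 difference -1.78 ± 0.20).

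Of 19 paternally expressed imprinted genes 7 were called higher and 2 lower (median 0.16), with 3 higher without mGS 2 and 1 lower without mGS 1. Male germ cells carry paternal imprints, and the maternally methylated loci lack methylation there. Peg3, a zinc finger gene, had 4173 and 4296 in mGS, against 612, 369 and 409 in GS (log2 difference 3.23 ± 0.36), and Mest had 2933 and 2927 in mGS, against 716, 652 and 691 in GS (log2 difference 2.09 ± 0.35). Igf2, the growth factor, overlapped between the groups, at 283 and 1195 in mGS, against 1533, 855 and 1406 in GS. Of 18 maternally expressed imprinted genes 5 were called higher and 2 lower (median 0.21), with 3 higher without mGS 1 and 3 without mGS 2. Over all genes 16.2% were called higher and 26.9% lower. Meg3, a long non-coding RNA, had 1763 and 1799 in mGS, against 693, 181 and 203 in GS (log2 difference 2.60 ± 0.57), and Cdkn1c, a cell cycle inhibitor, was lower, at 224 and 254 in mGS, against 464, 448 and 430.5 in GS (log2 difference -0.91 ± 0.17).

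Most measured genes of glycolysis and of amino acid metabolism were called higher. Of 25 genes of glycolysis and pyruvate use 18 were called higher and 1 lower (median 0.93). Pfkl, the liver-type phosphofructokinase, had 1512 and 2464 in mGS, against 185, 79.4 and 68.8 in GS (log2 difference 4.27 ± 0.38). Slc2a3, a glucose carrier, had 5076 and 5179 in mGS, against 937, 595 and 626 in GS (log2 difference 2.86 ± 0.22), and Ldha, the muscle-type lactate dehydrogenase, had 5904 and 7119 in mGS, against 1815, 2206 and 1684 in GS (log2 difference 1.78 ± 0.12). Pgk1, an X-linked kinase of the pathway, had 4926 and 6012 in mGS, against 1161, 324 and 319 in GS (log2 difference 3.46 ± 0.36). Pdk3, which switches off pyruvate dehydrogenase, was the member called lower, at 894 and 954 in mGS, against 1952, 1982 and 1818 in GS (log2 difference -1.05 ± 0.11). Of 20 genes of amino acid and one-carbon metabolism 12 were called higher and 2 lower (median 0.81), with 0 lower without mGS 2 and 1 lower without GS 2 or GS 3. Slc7a3, a carrier of cationic amino acids, had 3918 and 2639 in mGS, against 96.3, 103 and 118 in GS (log2 difference 4.93 ± 0.23, at least 20.0-fold higher), and Gldc, of the glycine cleavage system, had 1765 and 2247 in mGS, against 260.0, 348 and 213 in GS (log2 difference 2.89 ± 0.21).

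Large complexes moved by less. Of 78 subunits of oxidative phosphorylation 34 were called higher and 6 lower (median 0.24), of 53 cytosolic ribosomal protein genes 33 were called higher and 0 lower (median 0.27), and of 39 proteasome subunits 18 were called higher and 3 lower (median 0.27). Of 31 cell cycle genes 10 were called higher and 6 lower (median 0.17). For comparison with each count of this paragraph, 16.2% of all genes were called higher and 26.9% lower. Ccne1 (cyclin E1), which drives entry into DNA replication, had 3543 and 3270.4 in mGS, against 431, 582 and 609 in GS (log2 difference 2.67 ± 0.18), and Rb1, the retinoblastoma protein that restrains it, had 801 and 748 in mGS, against 2376, 2467 and 2399 in GS (log2 difference -1.64 ± 0.31). Cdkn2a, the locus of p16 and p19Arf, was lower, at 169 and 252 in mGS, against 502, 425 and 424 in GS (log2 difference -1.12 ± 0.18).

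Of 27 measured target genes of p53, 16 were called higher and 3 lower in mGS lines (median 0.63), against 16.2% and 26.9% of all genes. Neither the mGS lines nor the GS lines carried a p53 knock-down. The 8 not called included Mdm2 and Fas (log2 differences -0.21 and -0.28) and Tnfrsf10b and Pmaip1 (0.47 and 0.33). Cdkn1a, Bax and Gdf15 were not measured. Perp, an apoptosis effector and desmosome protein, had 1818 and 1414 in mGS, against 114, 98.6 and 122 in GS, at least 9.96-fold higher. Bbc3 (Puma), which promotes cell death, had 523 and 536 in mGS, against 284, 129 and 143 in GS (log2 difference 1.61 ± 0.28). Sesn2, a stress-response gene, had 2084 and 1241 in mGS, against 495, 306 and 359.5 in GS (log2 difference 2.08 ± 0.21). The 3 called lower were Ddb2, Sesn1 and Xpc, of which Ddb2 and Xpc recognise ultraviolet damage. Xpc had 309 and 305 in mGS, against 667, 749.6 and 636 in GS (log2 difference -1.15 ± 0.13). Of 30 adhesion and junction genes 11 were called higher and 3 lower (median 0.35), with 7 higher without mGS 2. Cldn6, a claudin of early epithelia, had 1607 and 3204 in mGS, against 89.4, 84.2 and 90.8 in GS, at least 14.1-fold higher, and Ocln (occludin) was lower, at 188 and 231 in mGS, against 1201, 805 and 811 in GS (log2 difference -2.14 ± 0.42). Of 14 genes of Lin28, let-7 and small RNA processing 4 were called higher and 2 lower (median 0.20), with 2 higher without mGS 1 and 2 without mGS 2, and 4 lower without GS 1. The shares of all genes were 16.2% higher and 26.9% lower. Ago2, the slicing Argonaute, had 1345 and 1491 in mGS, against 328, 282 and 253 in GS (log2 difference 2.31 ± 0.13), and Dicer1, which cuts precursor hairpins, had 1641 and 1884 in mGS, against 2867, 3444 and 3044 in GS (log2 difference -0.82 ± 0.11).

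The transcripts of the miR-17 cluster listed here were higher in mGS lines. They were named after their values were seen, and levels of Mir17, Mir302a, Mir302c and Mir302d are not given here. The probe sets read the host or precursor transcript and not the mature miRNA. The host gene Mir17hg on chromosome 14 had 387 and 441 in mGS, against 251, 179.5 and 190.1 in GS (log2 difference 1.01 ± 0.29, adjusted p = 0.00931), a call lost without mGS 2 (0.92). Mir18 had 421 and 592 in mGS, against 242, 140.4 and 109 in GS (log2 difference 1.69 ± 0.36), and Mir19a had 308 and 599 in mGS, against 180.1, 128 and 116 in GS (log2 difference 1.63 ± 0.38), a call lost without mGS 2 (1.15). Mir20a had 115 and 239 in mGS, against 55.6, 43.3 and 44.8 in GS. Mature sequences from RefSeq are given for these and for miR-302b, of an ES cell cluster on chromosome 3, with the seed (bases 2 to 8) in capitals, since the seed pairs with target sites.
miR-17-5p: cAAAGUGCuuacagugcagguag
miR-20a-5p: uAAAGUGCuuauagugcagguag
miR-18a-5p: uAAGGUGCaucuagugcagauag
miR-19a-3p: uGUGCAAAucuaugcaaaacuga
miR-302b-3p: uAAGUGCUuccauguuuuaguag
miR-17-5p and miR-20a-5p share a seed, and the others each have their own. Mir302b had 60.9 and 231 in mGS, against 21.3, 24.1 and 23.8 in GS, and only the mGS 2 value was above background.

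Genes of other cells that the samples could hold were measured beside these results. Of 23 feeder and fibroblast genes 1 was called higher and 0 lower (median 0.45), and without GS 1 the count was 2 higher, without mGS 2 it was 1 lower. Fn1 (fibronectin), the gene called, had 5386 and 6552 in mGS, against 4428, 2595 and 2234 in GS (log2 difference 1.01 ± 0.20). With the mean feeder level of each line as a covariate, 9008 genes were called between mGS and GS, 8320 of them shared with the 8592. Of 16 testis somatic cell genes limma called 0, with 1 at an unadjusted p under 0.05 (median -0.08), 12 of 16 in mGS and 10 of 16 in GS were under background in every line, and the sum ran from 2549 to 2773 in mGS, against 2655 to 3129 in GS.

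Some Y-linked genes were low in both mGS lines, and others in mGS 1 alone. Of 8 genes 5 were called lower (median -2.23). Usp9y, a Y-linked deubiquitinase, had 55.5 and 49.8 in mGS, against 3939, 3466 and 3497 in GS, at least 22.5-fold lower (log2 difference -6.11 ± 0.15, adjusted p = 1.68e-15). It was under background in all other pluripotent lines too, at 50.7 to 73.9 in the 12 induced lines, 51.9 to 58.8 in the iPS lines and 54.0 to 65.2 in the ES lines. Kdm5d, a Y-linked histone demethylase, had 158 and 171 in mGS, against 1251, 1498 and 1410.2 in GS (log2 difference -3.07 ± 0.44), and Zfy2, a Y-linked zinc finger gene of germ cells, had 53.1 and 53.5 in mGS, against 365, 634 and 576 in GS, at least 3.17-fold lower. Eif2s3y, a translation initiation subunit that most male cells use, had 45.1 in mGS 1 and 1006 in mGS 2, against 1022, 739 and 798 in GS. Uty, a Y-linked relative of Kdm6a, had 31.4 in mGS 1 and 651 in mGS 2, against 477, 609 and 607 in GS. Neither was called over both lines (adjusted p = 0.14 and 0.125), and both were called without mGS 2 (log2 differences -4.23 and -4.16). Sry, the sex-determining gene, and Uba1y, a ubiquitin-activating enzyme, were called lower by less and were above background in mGS 1 too. Sry had 685 and 593 in mGS, against 721, 762 and 791 in GS (log2 difference -0.25 ± 0.10, adjusted p = 0.0486), and was not called without mGS 2 (-0.15), GS 2 (-0.25) or GS 3 (-0.22). Uba1y had 349 and 367 in mGS, against 547, 653 and 628 in GS (log2 difference -0.76 ± 0.12). How far the probes of Sry and Uba1y read other transcripts was not tested. Eif2s3y was under background in 6 of the 12 induced lines, among them all 3 Dnmt mGS lines, and in 0 of 3 iPS and 0 of 3 ES lines. Uty was under background in 9 of the 12 induced lines, among them all 3 Dnmt mGS and all 3 Sox2 mGS lines. It was so in 0 of 3 iPS and 0 of 3 ES lines. Kdm5d lay at 134 to 780 in the induced lines, 164 to 204 in the iPS lines and 768 to 1465 in the ES lines.

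**Figure D3:**
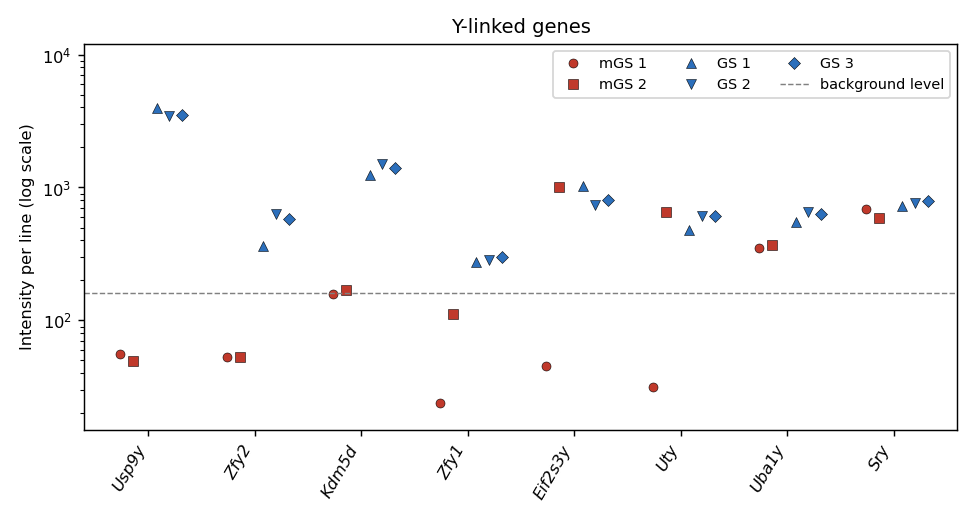
Intensity per line (log scale) of 8 Y-linked genes in the 2 mGS lines (red) and the 3 GS lines (blue), with the background level dashed. Usp9y, Zfy2 and Kdm5d are low in both mGS lines, Eif2s3y and Uty are at 45.1 and 31.4 in mGS 1 and within the range of or above the GS lines in mGS 2, and Sry lies between 593 and 791 in all 5 lines.

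The mGS lines were not alike in other genes. Counting genes above background whose cultures did not overlap, mGS 2 differed from mGS 1 by over 2-fold in 394 genes, 350 higher and 44 lower, with no replicate beyond the cultures of each line. Across all 19938 genes 7889 were higher and 12049 lower in mGS 2, and the median log2 difference of mGS 2 minus mGS 1 was -0.05. The feeder list was higher in mGS 2 in 23 of 23 genes, 20 of them over 2-fold with the cultures apart (median 1.55), and Postn, a matrix protein of fibroblasts, had 1739.8 in mGS 2 and 263 in mGS 1. The primed list was higher in mGS 2 in 18 of 19 genes (median 0.91). Cer1 had 1299 in mGS 2 and 239.8 in mGS 1, Mixl1 had 1141 and 363, and Lhx1 had 1031 and 210.1, in the same order. Naive and core factors were lower in mGS 2 in 21 of 23 genes (median -0.43). Tbx3, a T-box factor of naive cells, had 741 in mGS 2 and 2261 in mGS 1, and Tfcp2l1, a naive factor downstream of LIF, had 1131 and 2742. The feeder genes, the primed genes and the naive genes thus differed together between these lines, and the part of the feeders in it was not tested. For Tbx3 the call between the groups was lost without mGS 1 (2.31 ± 0.71 over both lines, 1.51 without mGS 1).

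Among the GS lines, GS 2 and GS 3 were close, with 29 genes over 2-fold, and GS 1 stood apart from both, with 330 genes higher and 129 lower. Across all 19938 genes 7941 were higher and 11997 lower in GS 1 than in the mean of GS 2 and GS 3 (median -0.06). The feeder list was higher in GS 1 in 22 of 23 genes (median 1.58). The GDNF list was lower in GS 1 in 16 of 20 genes (median -0.38): Etv5 had 484 in GS 1 and 1864 and 1765 in GS 2 and GS 3, and Bcl6b had 863 in GS 1 and 3131 and 2757 in the other lines. Among the 8 genes with the largest differences, Ptgs2 (cyclooxygenase 2) and the chemokines Ccl2 and Ccl7 were higher in GS 1, and Kcnc2, a potassium channel, was lower, at 138 against 1258 and 2415. Without GS 1, 9097 genes were called between mGS and GS lines, the highest count of any line left out, and without mGS 2 the count was 5957, the lowest.

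**Figure D4:**
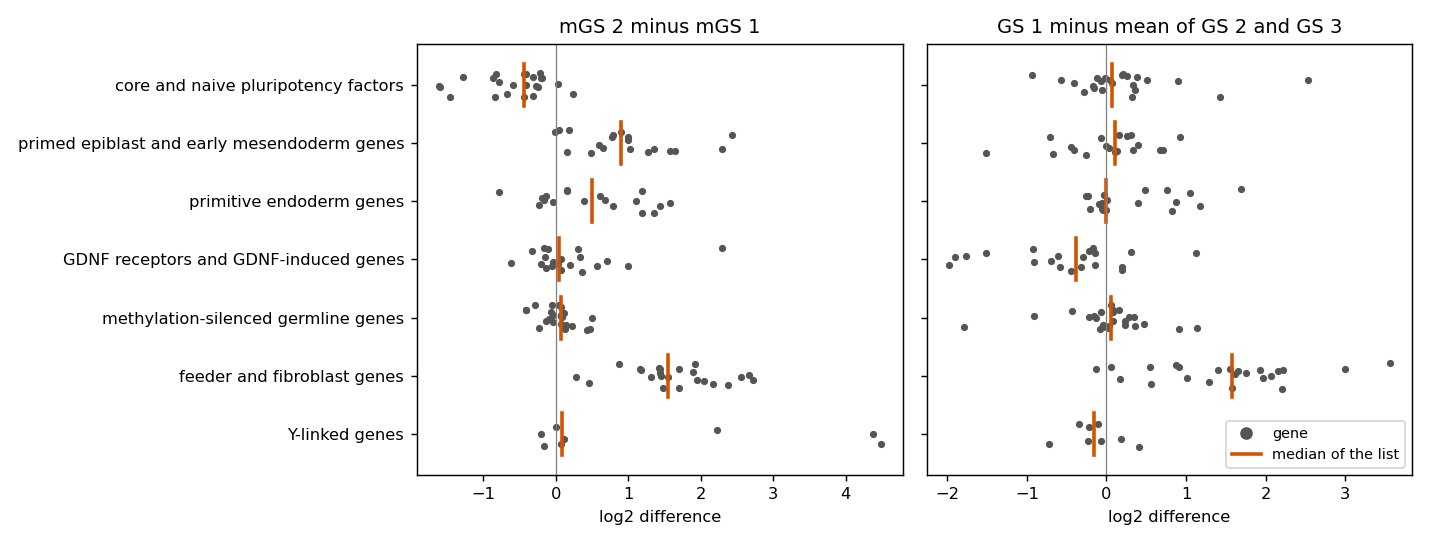
Log2 differences within a group for the members of 7 gene lists, mGS 2 minus mGS 1 on the left and GS 1 minus the mean of GS 2 and GS 3 on the right, with the median of each list as a bar. Feeder genes have medians of 1.55 and 1.58, primed and naive genes have medians of 0.91 and -0.43 between the mGS lines, and methylation-silenced germline genes have medians near 0 in both panels.

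Calls were spread over the genome. Of 739 X-linked genes 25 (3.38%) were called lower by over 8-fold, against 0 to 1.06% on each autosome, and 12 (1.62%) were called higher by over 8-fold, against 0.148% to 1.59%. On chromosome Y 3 of 9 genes were called lower by over 8-fold. The share of X-linked genes called in any size was 21.8% higher and 24.4% lower. CACGTG was in 8.38% of 15614 start windows of measured genes, in 10.1% of those called higher and in 10.0% of those called lower, counting either strand, which reads the same for this hexamer. In the list of methylation-silenced germline genes, 12 of 25 windows (48%) held it, and among the 15 largest decreases 5 of 13 windows did, against 0 of 10 among the 15 largest increases. The E-box was 1 of several short motifs searched. Another hexamer was in 27.7% of all windows, 34.6% of those called higher, 32.0% of those called lower and 40% of the methylation-silenced list. It was in 2 of the 13 windows of the largest decreases and 1 of the 10 of the largest increases. The remaining motifs, each in 1.72% to 2.82% of all windows, were in 0 of 25 windows of the methylation-silenced list. The lists were chosen with results known, so these shares describe the windows and are not a test. The median number of CG dinucleotides was 15 over all windows, 19 in genes called higher, 19 in genes called lower and 20 in the methylation-silenced list.

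Against mGS lines made by knock-down or added factors, the spontaneous lines differed in fewer genes than against GS. Of 19938 genes 183 (0.918%) were called, 99 higher (0.497%) and 84 lower (0.421%), against the mean of the 4 induced groups, and 3071 passed an unadjusted p under 0.05. With each array centred on its median the calls were 232 higher and 45 lower, and with quantile normalization 192 higher and 80 lower, so the balance of directions depended on the scaling. Lower calls outnumbered higher ones with all arrays as independent samples (1215 higher, 1927 lower) and with the line as a random block (409 higher, 556 lower, 965 in all). The 23 feeder genes had a median of -0.73 in this contrast, 0 of them called, and with the feeder level as a covariate 677 genes were called; the part of the feeders in the calls was not tested further. The count was 13 without mGS 1, 99 without mGS 2 and 108 without Sox2 mGS 3, and 313 without Oct4 mGS 3. Xrcc5 (Ku80), of the end-joining repair complex, had 2612 and 2251 in the spontaneous mGS lines, against 527 to 1144 in the 12 induced lines. The groups did not overlap (log2 difference 1.58 ± 0.18, adjusted p = 0.000789, 1.47 without mGS 1 and 1.68 without mGS 2), and the iPS lines lay at 2281 to 2489 and the GS lines at 1139, 1311 and 1244. Aard had 965 and 252 in the spontaneous lines, against 69.8 to 163 in the induced lines (log2 difference 2.23 ± 0.37), and Reck, a membrane inhibitor of metalloproteinases, had 221 and 427 in the spontaneous lines, against 475 to 923 in the induced lines (log2 difference -1.17 ± 0.19). Both calls were lost without mGS 1 (1.26 and -0.69). Usp26, an X-linked gene of the testis list, had 409 and 541 in the spontaneous lines, against 1069 to 2535 in the induced lines (log2 difference -1.94 ± 0.39), and Slc25a31, the ADP/ATP carrier of germ cells, had 81.7 and 78.9 in the spontaneous lines, against 97.9 to 755 in the induced lines (log2 difference -1.45 ± 0.30), both not called without mGS 1 or without mGS 2. Of the 27 p53 targets limma called 0 in this comparison, with 9 at an unadjusted p under 0.05, where the induced lines carried the p53 knock-down (median 0.37, against -0.06 over all genes). Other lists had larger medians in the same contrast, 0.54 for the core and naive factors and -0.73 for the feeder genes.

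**Figure D5:**
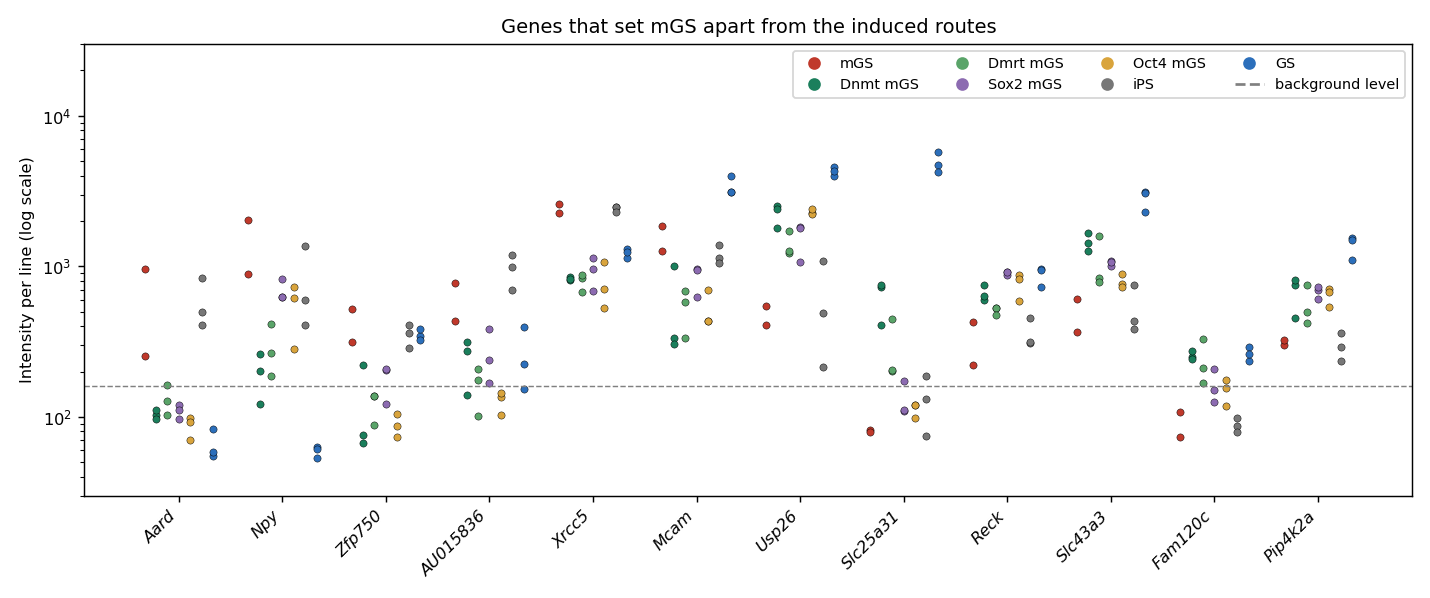
Intensity per line (log scale) of the 12 genes named between spontaneous mGS lines and induced mGS lines, with iPS and GS lines beside them and the background level dashed. Xrcc5 lies at 2251 and 2612 in the spontaneous lines and at 527 to 1144 in the induced lines, and Aard lies at 965 and 252 in the spontaneous lines and at 69.8 to 163 in the induced lines.

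Against the iPS lines, made with 4 factors from the same strain label, limma called 0 of 19938 genes (0%). At an unadjusted p under 0.05, 225 genes passed, and the lowest adjusted p was 0.377. Other fits gave 0 to 6 calls. Mid1, an X-linked ubiquitin ligase, had the smallest p, at 503 and 369 in mGS, against 3655 to 4143 in iPS lines (log2 difference -3.15 ± 0.54, adjusted p = 0.377), and GS lines had 222, 81.1 and 289. The naive list had a median log2 difference of -0.05 between mGS and iPS lines and the methylation-silenced list one of -0.13, against 0.02 over all genes. A p that misses the threshold does not show that the cells are alike, and the median standard error of a gene's log2 difference was 0.14.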

How the data were processed

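RNA was labelled with the Ambion WT Expression Kit and hybridised to Affymetrix whole-transcript arrays, per the labels' protocols. The authors deposited 1 table of linear intensity values for 28856 probe sets on 46 arrays. Its background correction and normalization are not given in the sources used here, and mm9 is named in the submitters' processing notes. The deposited intensity values ran from 16.0 to 27420 and were kept as scaled by the authors. Probe sets with 1 gene symbol in GEO's platform annotation (21789) were used, 1621 with several symbols and 5446 with none were left out, and the brightest probe set stood for each of 999 genes with over 1, which gave 19938 genes.

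Log2 intensities of the cultures of a line were averaged. A model with all 8 groups was fitted in limma 3.58.1 (lmFit and eBayes, R 4.3.3; 15 residual degrees of freedom), so that all groups shared 1 estimate of the spread. The 3 contrasts were mGS minus GS, mGS minus the mean of the 4 induced groups, and mGS minus iPS, each with Benjamini-Hochberg adjustment over all genes. The number of arrays limits the precision. The labels call the cultures biological replicates and do not say that lines came from separate animals, so p-values measure the spread between these lines, which may be partly technical.

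Genes were named by rank: the 15 largest called differences in each direction whose lines did not overlap, above background, for mGS minus GS, 6 for mGS minus induced, and 8 within a group, with members of 33 gene lists. The members and the lists were chosen with earlier results of these data known. Data were simulated for mGS minus GS over 19938 genes, with independent noise in each line and only a small set of genes changed. Of that set, 53.7% of genes changed 1.5-fold, 79.1% of those changed 2-fold and 97.0% of those changed 4-fold were called. False calls numbered 6. The simulation held far fewer changed genes than were called here and no shift shared by many genes, as seen in the olfactory receptor genes. Its rates need not hold for this contrast. Alternatives covered the scaling, offset, floor, filter, blocks, a feeder covariate and each line left out. Promoter and miRNA sequences came from RefSeq (GRCm38.p6), with an entry for 15614 measured genes.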

Additional observations from a re-analysis of the deposited data

Results flagged for a closer look

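Among 66 tests for a sample that stood apart from its group (the mean level of 33 gene lists over the 4 mGS or 6 GS arrays), 1 array did. The mean level of the X-linked testis genes was 710.8 in culture 2 of GS 3, against 766.8 in the nearest other GS array, a gap of 0.658 of the range over the 6 arrays, above the 95% critical value of Dixon's test for that number. Chance would flag about 1 in 20 such groups if the arrays were independent. The cultures of a line are not, so that rate need not hold here.

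Spontaneous mGS lines differed from the mean of the 4 induced groups in 183 genes (limma, adjusted p under 0.05). Route, vector, p53 knock-down and line cannot be told apart in this contrast. The 12 named genes follow, as log2 differences of spontaneous minus induced mGS lines. Higher in the spontaneous lines were Aard (2.23), Npy (1.90), Zfp750 (1.79), AU015836 (1.66), Xrcc5 (1.58) and Mcam (1.45). Lower were Usp26 (-1.94), Slc25a31 (-1.45), Reck (-1.17), Slc43a3 (-1.16), Fam120c (-1.11) and Pip4k2a (-0.99). Without mGS 1 the call of Xrcc5 held (1.47, adjusted p = 0.0367) and the calls of the other 11 were lost.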

How the results depend on the processing

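None of the 455 called list members and named genes, mGS minus GS, changed direction under any alternative that was run. Of 332 list members and genes named in other contrasts that were not called, 109 changed sign when 1 line was left out, among them Lhx1 (0.38 without mGS 1), Eif2s3y (0.25 without mGS 1), Uty (0.22 without mGS 1) and Nr5a2 (0.79 without mGS 2). For mGS minus GS the count of called genes lay between 5957 and 11580, the higher calls between 2503 and 4257 and the lower calls between 3454 and 7323, against 8592, 3231 and 5361. The lower calls were 3460 with the dimmest 40% of genes left out, where fewer genes are tested, and 3454 to 5900 with 1 line left out. Of the 455, 320 were called in every alternative and 135 lost the call in at least 1. Lefty1 was 2.81 (adjusted p = 0.057) with values floored at the background level.

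For mGS minus induced mGS the 183 calls became 3142 with all arrays as independent samples, 965 with the line as a random block, 925 with the culture number as a replicate block, 64 with only the groups compared in the fit, 277 with arrays centred and 677 with the feeder covariate; leaving out 1 line gave 13 to 313. For mGS minus iPS the 0 calls became 6 with all arrays independent and 1 each with the random block, the culture block, only the groups compared and the feeder covariate, and 0 to 2 with 1 line left out. The causes were not tested. Leaving out an mGS line leaves 1 line, which is assumed to vary like those of the other groups.

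Same-numbered mGS and GS lines deviated from their group means with correlations of -0.28 and -0.19. The deviations of the 2 mGS lines mirror each other by construction, so these correlations cannot show whether line numbers pair the lines. With the line number as a replicate block 8318 genes were called for mGS minus GS (7965 shared), 142 for mGS minus induced and 0 for mGS minus iPS, and with the culture number as a replicate block 8425 for mGS minus GS. The median log2 difference of all genes, mGS minus GS, was -0.13 as deposited, -0.09 with arrays centred and -0.06 with quantile normalization. Low intensities limit the folds of genes under background, which are bounds.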
